A study of Homo sapiens with 12 samples.

Results

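TK6 cells exposed to 4 µg/mL 3-methylcholanthrene for 24 h were compared with TK6 cells at 0 µg/mL, 3 libraries a side, which are 6 of the 12 libraries of the series. Libraries were assigned by the concentration in their labels, high for 4 µg/mL and control for 0 µg/mL. All 50006 genes of the deposited count table were read, and 12030 had enough counts to be tested. The other 6 libraries, at 0.0004 µg/mL (low) and 0.04 µg/mL (medium), entered the fit to estimate the spread and are given beside a result only where they bear on it. All groups are the same established line, labelled TK6 (IVGT) and grown in suspension, and none carries a genetic change that the labels name. The labels name neither a vehicle nor a metabolic activation system. Whether replicates were separate cultures is not stated in the labels, so a p-value here speaks of the spread among these libraries, and that spread may be technical.

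TK6, an immortal human line grown from B lymphoblasts, serves in mutation tests because it carries a single working copy of the thymidine kinase gene. 3-Methylcholanthrene is a polycyclic aromatic hydrocarbon and a ligand of the aryl hydrocarbon receptor (AHR). In cells that hold the receptor, the ligand-bound AHR enters the nucleus, pairs with ARNT and binds DNA at a short core motif, GCGTG, switching on CYP1A1, CYP1B1, TIPARP, NQO1, the feedback repressor AHRR and others, together called the AHR battery. CYP1A1 and CYP1B1 oxidise the hydrocarbon to products that bind DNA. Bulky DNA adducts are removed by nucleotide excision repair, bypassed by translesion polymerases, and sensed by ATR and p53, whose targets include CDKN1A, MDM2, FAS and DDB2. The study's design lets 2 questions be asked of the highest concentration: whether the battery moved, and whether genes of the damage response did.

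The 250 bases before the RefSeq start sites of 3 battery genes are shown to mark where the AHR core motif occurs in them. They do not answer the first question, which rests on the counts, and sequence further upstream is not covered. CYP1A1 is the classical target, and TIPARP and NQO1 are the battery genes with enough counts to be tested that are best known as such. Windows are 5′ to 3′ on the gene's strand, build GRCh38.p14, from RefSeq, and capitals mark the core GCGTG or its reverse complement CACGC. CYP1A1 lies at chr15:74725529-74725778 (minus strand), TIPARP at chr3:156674340-156674589 (plus strand) and NQO1 at chr16:69726561-69726810 (minus strand).
CYP1A1: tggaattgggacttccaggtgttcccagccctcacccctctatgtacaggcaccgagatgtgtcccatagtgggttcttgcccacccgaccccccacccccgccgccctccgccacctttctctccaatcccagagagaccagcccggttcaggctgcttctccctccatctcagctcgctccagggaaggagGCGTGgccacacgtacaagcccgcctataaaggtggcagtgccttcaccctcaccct
TIPARP: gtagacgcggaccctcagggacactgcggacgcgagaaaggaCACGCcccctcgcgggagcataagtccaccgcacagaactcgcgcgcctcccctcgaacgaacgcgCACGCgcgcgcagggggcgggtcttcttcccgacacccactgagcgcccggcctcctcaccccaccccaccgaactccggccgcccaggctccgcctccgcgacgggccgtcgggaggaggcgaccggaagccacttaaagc
NQO1: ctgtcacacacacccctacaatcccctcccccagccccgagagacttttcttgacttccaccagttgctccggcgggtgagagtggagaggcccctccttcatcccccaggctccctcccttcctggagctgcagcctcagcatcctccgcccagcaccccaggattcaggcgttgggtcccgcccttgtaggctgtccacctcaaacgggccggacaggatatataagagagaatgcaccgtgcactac
The CYP1A1 window held 1 match and the TIPARP window 2. For TIPARP the table holds 3 windows, of which 1 had a match, the one shown. The NQO1 window held 0, which says only that these letters are not in it. The motif was in 32.2% of all 35116 promoter windows and in 43.9% of the 13106 windows of genes tested, so a match is common. Among genes with an unadjusted p below 0.05, it was in 37.6% of 218 windows of genes above control and in 49.1% of 114 windows of genes below control. These shares are descriptions, and a match is not a binding site.

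No gene was called between high and control by edgeR's quasi-likelihood test at a Benjamini-Hochberg adjusted p below 0.05 (0 of 12030, 0%). The smallest adjusted p was 0.237, for an entry of GGNBP2 on an alternate contig, and among genes without such a copy it was 0.81. At an unadjusted p below 0.05 there were 375 genes (3.12%), 231 above control (1.92%) and 144 below (1.2%), where the threshold alone passes 601.5 of 12030 genes that do not differ. DESeq2 called 5 genes and limma voom 1. Of the 5, 4 had a copy on an alternate or patch contig, and the other was RPS29, a ribosomal protein gene.

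The split between directions rested on the scaling. With TMM factors, which correct for RNA composition, 61.6% of the 375 genes lay above control. With library totals alone 30.9% of 434 did, and 23.2% in limma-trend on log2(CPM + 1). CPM, the count per 1000000 counts of the library, is printed as deposited, without that correction. On this scale the 3 high libraries lay wholly above the 3 control libraries for 222 genes (1.85%) and wholly below for 996 (8.28%). With TMM-scaled CPM, a comparison added after seeing the data, these were 440 (3.66%) and 463 (3.85%).

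The precision varied with the gene. The median standard error of a log2 fold change was 0.20. For 8609 genes (71.6%) the 95% interval of the fold change lay within 2-fold in both directions, and for 5562 (46.2%) within 1.5-fold. Fitted changes beyond 2-fold were seen for 541 genes, of which 316 had no copy, and for 10 of the 7833 genes without a copy at 10 CPM or more.

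**Figure D1:**
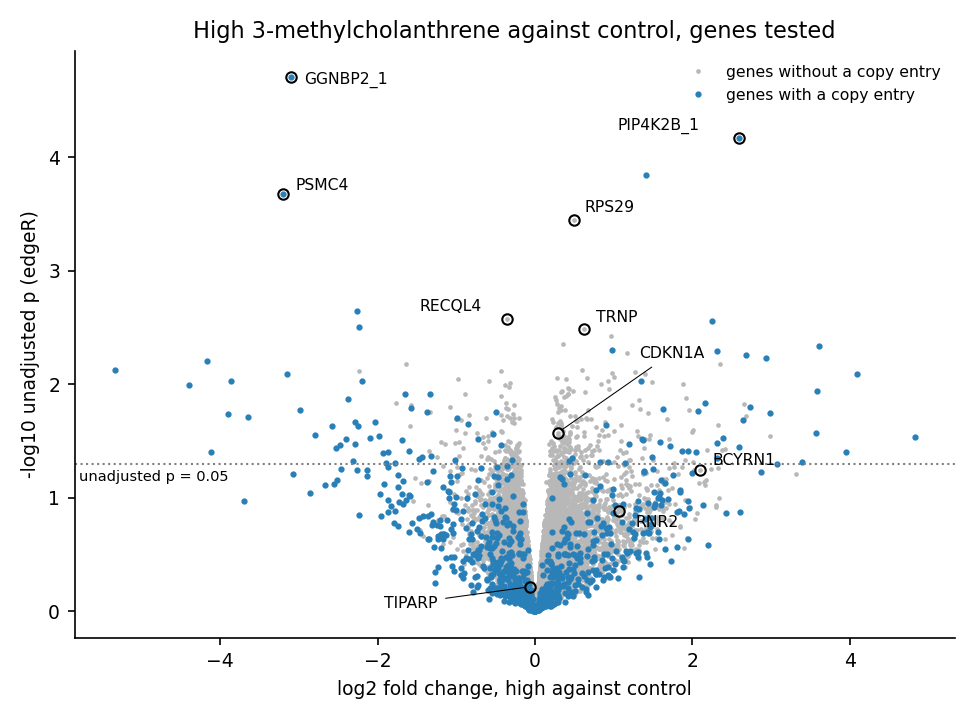
Each point is 1 of the 12030 genes tested, with its log2 fold change (high against control) on the x axis and −log10 of edgeR's unadjusted p on the y axis. Genes with a copy entry on an alternate or patch contig are blue and hold the far ends of the plot. RPS29 is the highest point without a copy, and TIPARP sits near 0.

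The 3 high libraries were not alike. High replicate 2 had the most counts, 19841387, against 14756863 and 11520939 in high replicates 1 and 3 and 9472214 to 13650359 in control. Over log2 CPM of the genes tested its Pearson r was 0.963 with high replicate 1 and 0.948 with high replicate 3, below its 0.984 with control replicate 3 and 0.980 with control replicate 2. High replicates 1 and 3 correlated at 0.976. These values run across genes, which are not independent replicates.

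High libraries differed many-fold in several RNAs that lack a poly(A) tail or have a short one. Mitochondrial 16S ribosomal RNA (RNR2) took 5.52%, 1.45% and 7.96% of counts in high replicates 1 to 3, and 3.84%, 2.18% and 1.43% in control. RN7SK, the 7SK RNA that holds a transcription elongation factor inactive, stood at 60.4, 4.89 and 63.9 CPM in high, and in control at 19.5, 14.8 and 7.18 CPM. RMRP, the RNA of a mitochondrial RNA-processing ribonuclease, stood at 17.1, 0.0504 and 23.1 CPM in high, and in control at 6.23, 2.43 and 1.68 CPM. High replicate 2 was thus lowest or near lowest of the 6 in each, and high replicates 1 and 3 highest. The libraries were made by mRNA capture, per the labels' protocols, and whether the yield of that capture differed between libraries was not tested. The same order was in all 10 genes that passed 2-fold at 10 CPM or more, which were chosen after their values were seen. These are RNR1, RNR2, RN7SK, BCYRN1, MALAT1, MIR142HG, HES1, H4C3, LOC105378925 and LOC112268225. BCYRN1, a small cytoplasmic RNA, stood at 569, 68.0 and 802 CPM in high, and in control at 204, 89.1 and 58.6 CPM. MALAT1, a nuclear long noncoding RNA, stood at 73.4, 10.2 and 79.9 CPM against 38.4, 17.6 and 8.64 CPM. HES1, a transcriptional repressor downstream of Notch, stood at 26.0, 7.06 and 29.1 CPM against 15.7, 8.45 and 7.40 CPM. In each of these 3 genes the groups overlapped through high replicate 2. Libraries at 0.0004 µg/mL differed from one another in the same way. Low replicate 3 stood at 7.99% for 16S, 90.0 CPM for 7SK and 28.2 CPM for RMRP, above every high library. Low replicate 2 stood at 1.46%, 5.11 CPM and 1.28 CPM.

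Without high replicate 2, 2295 of 12433 genes had an unadjusted p below 0.05 (18.5%), 1126 above control (9.06%) and 1169 below (9.4%), and 0 were called (smallest adjusted p = 0.267, edgeR). Of the 375 genes of the fit with all libraries, 310 were among these 2295, which is 82.7% of the former and 13.5% of the latter. Leaving out control replicate 2, high replicate 1 or high replicate 3 gave 234, 243 and 179 genes. The sign was the same in all 6 fits that leave out a library for 366 of the 375. Beside several results below the value without high replicate 2 is given, and for several gene lists the median with other single libraries left out.

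Most markers of the labelled cell type were detected. Of 15 B lymphoblast markers 12 averaged at least 1 CPM over the 6 libraries. CR2 was at 0, BLK had 0 to 2 counts and HLA-DRA 0 to 4 counts in a library. The summed level of the list ran from 3553 to 4184 CPM in control and from 2721 to 4251 CPM in high. Of the T and NK cell markers 1 of 8 averaged at least 1 CPM, with CD3G, GNLY and KLRD1 at 0 (5.28 to 8.50 CPM summed in control, 4.13 to 8.32 in high). Of the myeloid markers 3 of 8 did so, with LYZ, MPO, FCGR3A and S100A8 at 0 (20.3 to 22.3 and 21.7 to 22.8 CPM), and all 5 erythroid markers were at 0. Of the stromal, epithelial and endothelial markers 4 of 9 did so, with COL1A2, COL3A1, EPCAM, KRT18 and KRT19 at 0 (584 to 600 and 527 to 593 CPM). The summed ranges of high and control overlapped in each of these lists that had counts.

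No gene of the AHR battery passed the test at 4 µg/mL. AHR itself (chromosome 7, 17298652 to 17346147), CYP1B1 (chromosome 2, 38067509 to 38076151) and AHRR (chromosome 5, 321714 to 438285) had 0 counts in all 6 libraries. FTH1, the ferritin heavy chain gene that nearly all cells use, was also listed at 0, so 0 counts here do not show that a gene was silent. CYP1A1 (chromosome 15, 74719542 to 74725528) had 0, 4 and 0 counts in control replicates 1 to 3 and 2, 0 and 4 counts in high replicates 1 to 3. The ratio of its summed counts, 6 against 4, scaled by library totals, was 1.06. The 95% exact counting interval ran from 0.251 to 5.11, covers counting error only and takes each count as independent. Small counts here were mostly even and may overstate independent fragments, so the interval may be too narrow. An induction of CYP1A1 within that interval was not detectable at this depth.

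Of 22 battery genes 6 were tested. The untested ones had few counts or none. CYP2S1, a cytochrome P450, had 5 counts in control and 2 in high (ratio 0.283, interval 0.0269 to 1.73, with the same limits). CYP1A2 had 2 counts in control and 0 in high, IL1B 4 and 0, and UGT1A6 1 and 0. The remaining 9, beside CYP1A1, CYP1B1 and AHRR, were at 0 in all 6 libraries: ALDH3A1, UGT1A1, GSTA1, GSTA2, EREG, SERPINB2, PTGS2, LRAT and SCIN.

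TIPARP (chromosome 3, 156674590 to 156706770), an ADP-ribosyltransferase that dampens AHR, stood at 32.2, 42.2 and 34.7 CPM in control, and in high at 32.1, 36.5 and 31.3 CPM. Its log2 fold change was -0.07 ± 0.13 (SE; 95% interval -0.35 to 0.22; edgeR adjusted p = 0.873). High lay within the control range or just under it, and the sign turned to 0.044 without control replicate 2. NQO1 (chromosome 16, 69709401 to 69726560), a quinone reductase also driven by NRF2, stood at 153, 160 and 184 CPM in control, and in high at 122, 184 and 108 CPM, a log2 fold change of -0.20 ± 0.23, and -0.48 without high replicate 2. High replicate 2 matched the highest control library, while high replicates 1 and 3 lay under all of control. SLC7A5, an amino acid transporter, stood at 674, 598 and 626 CPM in control, and in high at 519, 582 and 420 CPM (-0.26 ± 0.11, edgeR adjusted p = 0.81). Its groups did not overlap in CPM and did overlap after TMM scaling. MYC stood at 240, 300 and 313 CPM in control, and in high at 184, 287 and 137 CPM (-0.43 ± 0.30, and -0.79 without high replicate 2). NFE2L2, which encodes NRF2, stood at 102, 85.6 and 71.8 CPM against 108, 70.2 and 125 CPM (0.29 ± 0.26). POLK, a translesion polymerase known to bypass hydrocarbon adducts, stood at 31.2, 33.5 and 30.2 CPM against 35.5, 28.9 and 28.2 CPM (0.02 ± 0.11). Over the 6 genes 2 lay above control and the median log2 fold change was -0.14, beside 0.00 over all genes tested, and without high replicate 2 it was -0.27.

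Genes of the proteins that hold and partner AHR did not pass either. ARNT (chromosome 1), the DNA-binding partner, stood at 37.3, 32.1 and 40.4 CPM in control, and in high at 28.1, 40.5 and 23 CPM (-0.20 ± 0.27, and -0.48 without high replicate 2). HSP90AB1, a chaperone of the unbound receptor, stood at 3975, 3662 and 3333 CPM against 4265, 3466 and 4095 CPM (0.17 ± 0.11). Of 16 listed genes of the complex 13 were tested, 6 lay above control, and the median was -0.14, which ran from -0.17 without high replicate 2 to 0.0025 without control replicate 2. Among genes of conjugation and other xenobiotic metabolism 20 of 37 were tested, 8 lay above control and the median was -0.04, with a range from -0.11 without high replicate 2 to 0.0096 without high replicate 3. SULT1A1, a sulfotransferase, stood at 24.0, 22.2 and 20.9 CPM against 25.3, 22.7 and 31.0 CPM (0.29 ± 0.15), and MGST1, a microsomal glutathione transferase, at 137, 169 and 174 CPM against 123, 152 and 122 CPM (-0.22 ± 0.18). Of 30 targets of NRF2, the regulator of the oxidative stress response, 24 were tested, 9 lay above control and the median was -0.16, with -0.25 without high replicate 2 and -0.036 without high replicate 3. GCLC, the catalytic subunit of glutathione synthesis, stood at 27.9, 26.4 and 27.2 CPM against 25, 23.6 and 19.3 CPM (-0.21 ± 0.12). In GCLC the groups did not overlap, as in 8.28% of all genes in that direction.

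Several p53 targets lay slightly above control in every high library, and none passed the test over all genes. Of 46 listed targets 38 were tested and 21 lay above control. The median log2 fold change was 0.08, with a range from 0.04 to 0.11 as each library was left out. By library, the median log2 deviation from the control mean was -0.0018, 0.093 and 0.077 in high and 0.031, -0.027 and 0.014 in control. High replicate 1 was thus inside the control range. At an unadjusted p below 0.05 there were 3 above (background 1.92%) and 0 below (background 1.2%). In CPM 4 members lay wholly above control (background 1.85%) and 2 wholly below (background 8.28%). After TMM scaling these were 7 and 1 (backgrounds 3.66% and 3.85%).

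CDKN1A (chromosome 6, 36676463 to 36687332), which encodes the cell-cycle inhibitor p21, stood at 176, 163 and 166 CPM in control, and in high at 203, 183 and 209 CPM. Its log2 fold change was 0.29 ± 0.11 (SE), with a 95% interval from 0.04 to 0.54 (edgeR unadjusted p = 0.027, adjusted p = 0.81). All 3 high libraries lay above control, also high replicate 2. FAS (chromosome 10, 88964050 to 89017059), a death receptor, stood at 84.2, 79.9 and 73.3 CPM in control, and in high at 91.6, 84.4 and 101 CPM, a log2 fold change of 0.28 ± 0.09. DDB2 (chromosome 11, 47214454 to 47239217), the damage-recognition subunit that finds lesions for excision repair, stood at 42.1, 40.4 and 33.8 CPM in control, and in high at 44.5, 44.2 and 47.1 CPM, a log2 fold change of 0.28 ± 0.10. For FAS the lowest high library was just above the highest control library. DDB2 averaged 45.2 ± 2.90 CPM in low and 47.4 ± 2.15 CPM in medium (SD, n = 3 each), beside 45.3 ± 1.62 CPM in high. Its rise over control was thus also present at the lower concentrations. CDKN1A averaged 187 ± 26.5 CPM in low and 168 ± 7.20 CPM in medium, and FAS 82.2 ± 2.10 and 75.8 ± 4.73 CPM. In low CDKN1A stood at 187, 160 and 214 CPM, so low replicate 3 lay above every high library. TIGAR, a p53-induced regulator of glycolysis, stood at 37.4, 35.2 and 36.6 CPM in control, and in high at 40.0, 38.3 and 45 CPM (0.23 ± 0.16).

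Other p53 targets did not share this order. MDM2 (chromosome 12, 68808172 to 68850686), the ubiquitin ligase that degrades p53, stood at 151, 138 and 154 CPM in control, and in high at 131, 149 and 84.9 CPM (-0.23 ± 0.22), so its groups overlapped. PLK3, a stress kinase, stood at 15.6, 10.3 and 12.5 CPM in control, and in high at 19.9, 12.1 and 23.3 CPM (0.58 ± 0.27), with high replicate 2 inside the control range. PMAIP1, which encodes the pro-apoptotic NOXA, lay below control in every high library, at 91.2, 99.2 and 92.4 CPM against 107, 110 and 114 CPM (-0.17 ± 0.09). TNFRSF10B, a TRAIL receptor, also lay below, at 84.3, 90.8 and 85.3 CPM against 94.9, 105 and 92.6 CPM (-0.11 ± 0.11), and its groups overlapped after TMM scaling. For each of these 8 targets edgeR's adjusted p was 0.81. TIGAR, PMAIP1 and TNFRSF10B were named after their values were seen. Without high replicate 2, 9 of the 38 targets lay above and 4 below at an unadjusted p below 0.05, against backgrounds of 9.06% and 9.4%.

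**Figure D2:**
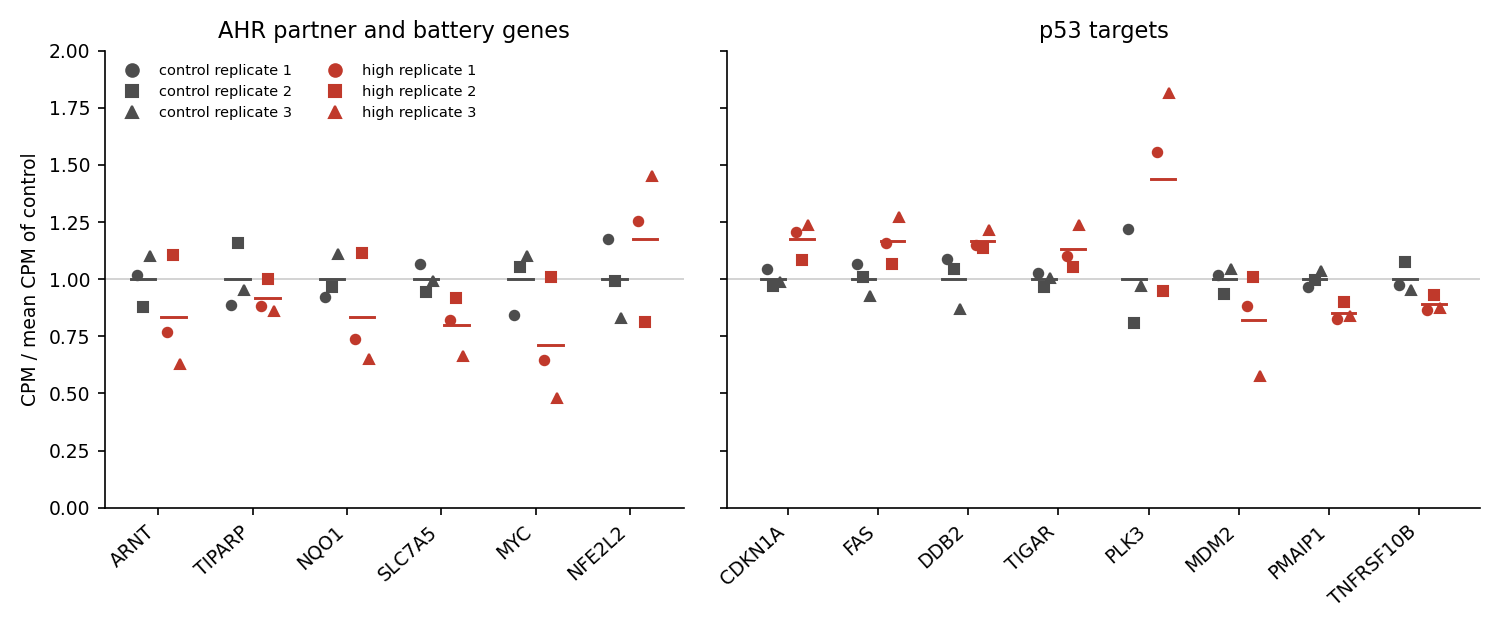
Each gene's CPM is divided by its mean over the 3 control libraries (y axis, control mean at 1), with control in grey, high in red, the replicate number as the marker shape and bars at group means. CDKN1A, FAS, DDB2 and TIGAR have all 3 high libraries above control. TIPARP and MDM2 have high replicate 2 inside the control range, and NQO1 has it level with the highest control library.

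No repair gene passed the test, and list medians lay from -0.08 to 0.05. Of 35 genes of nucleotide excision repair 33 were tested, 17 lay above control and the median was 0.03. It turned to -0.02 without a composition factor, and to -0.011, -0.015 and -0.030 without control replicate 3, high replicate 1 and high replicate 3. LIG3, the DNA ligase that seals repair patches, stood at 87.5, 93.1 and 84.5 CPM in control, and in high at 77.7, 73.6 and 69.4 CPM (-0.21 ± 0.08, edgeR unadjusted p = 0.020). XPA, which verifies the lesion, stood at 7.92, 9.71 and 7.69 CPM against 11.1, 7.76 and 12.4 CPM (0.36 ± 0.18), and its groups overlapped. DDB1, the partner of DDB2, stood at 550, 586 and 542 CPM against 519, 505 and 443 CPM (-0.14 ± 0.08), with no overlap.

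Among 18 tested genes of translesion synthesis 12 lay above control, with a median of 0.05 that turned to -0.0047 without a composition factor. RAD18, the ligase that marks PCNA for bypass, stood at 77.4, 74.9 and 69.7 CPM in control, and in high at 85.3, 74.9 and 83.2 CPM (0.19 ± 0.08, edgeR unadjusted p = 0.039). POLH, the polymerase that bypasses ultraviolet lesions, stood at 42.2, 36.6 and 34.7 CPM against 52.1, 32.6 and 52.9 CPM (0.33 ± 0.22), with high replicate 2 the lowest of all 6. Of the recombination and crosslink repair genes all 36 were tested, 17 lay above control and the median was -0.08, which turned to 0.0015 without high replicate 3. FANCA, a subunit of the Fanconi core complex, stood at 61.4, 56.7 and 58.8 CPM in control, and in high at 45.6, 49.1 and 49.9 CPM (-0.23 ± 0.10, edgeR unadjusted p = 0.034), with no overlap. BRCA1 stood at 140, 130 and 125 CPM against 165, 125 and 160 CPM (0.24 ± 0.14). Among 23 tested damage-signalling genes 8 lay above control, with a median of -0.04 (-0.065 to -0.013 as each library was left out). ATR, the kinase that senses stalled forks, stood at 136, 155 and 135 CPM against 128, 127 and 113 CPM (-0.16 ± 0.11), and WEE1, which holds cells before mitosis, at 43.1, 45.2 and 52.5 CPM against 29.8, 44.9 and 23.3 CPM (-0.46 ± 0.28). ATR's groups did not overlap, whereas high replicate 2 kept WEE1 inside the control range. The BCL2 family, which sets the threshold for apoptosis, had 15 tested genes, 9 above control and a median of 0.04, which turned to -0.02 without a composition factor.

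The genes whose loss TK6 mutation tests score were measured as well. TK1, thymidine kinase, stood at 23.1, 25.1 and 22.9 CPM in control, and in high at 25.4, 22.9 and 26.0 CPM (0.12 ± 0.10). HPRT1, the purine salvage enzyme, stood at 83.6, 91.8 and 98.5 CPM against 85.5, 94.4 and 80.1 CPM (-0.02 ± 0.12). PIGA, needed for the GPI anchor, stood at 23.1, 30.1 and 29.8 CPM against 20.7, 27.9 and 18 CPM (-0.26 ± 0.26). Groups overlapped in all 3, and an mRNA level does not report mutation.

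Ranked by p among genes without a copy and with no overlap, the first above control was RPS29 (chromosome 14, 49570988 to 49598710), a protein of the small ribosomal subunit. It stood at 110, 121 and 108 CPM in control, and in high at 139, 155 and 165 CPM, a log2 fold change of 0.50 ± 0.10 (SE; 95% interval 0.28 to 0.71; edgeR adjusted p = 0.81, DESeq2 adjusted p = 0.0451). All high libraries lay well above control, and the fold change stayed between 0.43 and 0.57 as each library was left out. The means of low and medium lay between, at 130 ± 8.61 and 127 ± 10.7 CPM (SD, n = 3 each). The span of RPS29 contains RN7SL1 (49586580 to 49586878), the 7SL RNA of the signal recognition particle, which stood at 21.1, 1.26 and 22.9 CPM in high, and in control at 5.81, 3.59 and 1.2 CPM. In high replicate 2, where 7SL was near its lowest, RPS29 was at 155 CPM. Whether reads of 7SL were counted for RPS29 was not tested. RPS29 went against its family, in which 15 of 75 tested ribosomal protein genes lay above control.

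The next by p were TRNP, ZNF561-AS1, PDE4DIP and IRS2. TRNP, the mitochondrial proline tRNA, stood at 69.4, 56.0 and 55.7 CPM in control, and in high at 92.6, 70.9 and 103 CPM (0.62 ± 0.17). Its entry spans 68 bases of the minus strand. Whether its reads came from the tRNA or from longer transcripts of either strand was not tested. ZNF561-AS1, an antisense RNA, stood at 1.69, 1.90 and 1.47 CPM against 2.78, 3.53 and 3.12 CPM (0.96 ± 0.26). It averaged 3.37 CPM in low and 2.89 CPM in medium, beside 3.14 CPM in high. As the use of strand in counting is not given, its reads cannot be told apart from those of its sense partner. PDE4DIP, a Golgi and centrosome scaffold protein, stood at 22.5, 23.8 and 20.8 CPM against 28.8, 25.3 and 28.4 CPM (0.36 ± 0.10). IRS2, an adaptor of the insulin receptor, stood at 0.845, 0.633 and 0.952 CPM against 2.10, 1.36 and 1.91 CPM (1.17 ± 0.34). Its low libraries, at 1.62, 1.49 and 1.72 CPM, and its medium libraries, at 1.53, 1.14 and 1.36 CPM, were above control too. The other 5 in this direction were PSD, MFSD14CP, LOC100507634, SH3TC1 and LOC124905182, with log2 fold changes from 0.60 to 2.35.

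Below control the first was RECQL4, a DNA helicase of replication and repair, at 77.6, 75.8 and 66.4 CPM in control and 60.4, 54.2 and 49.6 CPM in high. Its log2 fold change was -0.36 ± 0.09 (SE), with a 95% interval from -0.57 to -0.15 (edgeR unadjusted p = 0.0027, adjusted p = 0.81). All high libraries lay below control, and the value ran from -0.42 to -0.30 as each library was left out. RECQL4 in low, at 64.4, 61.9 and 57.1 CPM, was also below all of control. In medium it stood at 62.1, 73.4 and 66.2 CPM and overlapped control. SKIL, which encodes SnoN, a repressor of TGF-beta signalling, stood at 30.0, 32.2 and 29.4 CPM against 24.1, 22.3 and 18.8 CPM (-0.43 ± 0.13). Its low libraries, at 20.4, 28.8 and 21.5 CPM, and its medium libraries, at 25.2, 26.5 and 24.6 CPM, were below control too. TIE1, a receptor tyrosine kinase best known from endothelium, stood at 2.22, 2.11 and 2.2 CPM against 0.949, 1.16 and 1.04 CPM (-0.98 ± 0.31). In low it overlapped control, at 2.63, 1.70 and 2.26 CPM. ZBTB44, a zinc finger protein, stood at 36.4, 42.9 and 42.9 CPM against 32.1, 32.5 and 29.5 CPM (-0.32 ± 0.10). NFRKB, a subunit of the INO80 chromatin remodeller, stood at 49.2, 54.2 and 45 CPM against 37.7, 42.3 and 33.2 CPM (-0.33 ± 0.11). The other 5 were CTBP1-AS, FSD2, ENGASE, ACBD3 and EXD3, with log2 fold changes from -2.23 to -0.38, and CTBP1-AS carries the same uncertainty of strand. Since these genes were ranked by p and required not to overlap, their order is a description.

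The most abundant genes without overlap were ND5, SRRM2, ND6, IPO5 and ODC1, and the nuclear ones lay below control by little. SRRM2, a scaffold of nuclear speckles, stood at 1127, 1164 and 1123 CPM in control, and in high at 1076, 1074 and 931 CPM (-0.09 ± 0.08). IPO5, an importin, stood at 965, 1033 and 985 CPM against 896, 932 and 747 CPM (-0.16 ± 0.10). ODC1, the first enzyme of polyamine synthesis, stood at 960, 1046 and 903 CPM against 811, 877 and 776 CPM (-0.18 ± 0.11). After TMM scaling the groups of SRRM2 and IPO5 overlapped.

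The largest changes were in genes with a second entry on an alternate or patch contig, whose levels are uncertain because a read that fits both entries has no single place. These were 805 of the 12030 genes tested (6.69%) and 88 of the 375 with an unadjusted p below 0.05. GGNBP2_1, the alternate-contig entry of GGNBP2, stood at 10.2, 11.6 and 10.4 CPM in control, and in high at 1.22, 0.706 and 1.74 CPM (-3.10 ± 0.42, edgeR adjusted p = 0.237). Low stood at 1.21, 0.532 and 0.861 CPM and medium at 2.18, 0.909 and 0.777 CPM. The control libraries thus stood apart from all others in this entry, not high alone. The primary entry on chromosome 17 stood at 0.633, 0.422 and 0.220 CPM in control, and in high at 0.339, 8.57 and 1.04 CPM. Summed over both entries, GGNBP2 was at 10.9, 12 and 10.6 CPM in control, and in high at 1.56, 9.27 and 2.78 CPM. In high replicate 2 the counts thus lay in the other entry and the sum was near control. The same held for medium replicate 2, at 0.909 CPM in the alternate and 9.09 CPM in the primary entry.

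PIP4K2B_1, the alternate entry of a phosphoinositide kinase gene, stood at 1.3, 2.74 and 2.12 CPM in control, and in high at 15, 11.7 and 9.11 CPM (2.59 ± 0.41, edgeR adjusted p = 0.402), and its primary entry was at 0 in all 6. Low stood at 2.83, 4.15 and 5.81 CPM and medium at 4.91, 5.08 and 11.1 CPM. The high libraries lay above all of control and low, and overlapped medium. PSMC4, an ATPase subunit of the proteasome cap, stood at 4.01, 28.7 and 28.9 CPM in control, and in high at 1.76, 2.22 and 2.52 CPM (-3.20 ± 0.57, edgeR adjusted p = 0.628). Low, at 0.808, 1.70 and 1.51 CPM, lay below every high library. Medium averaged 2.53 ± 0.462 CPM (SD, n = 3), reached at most 3.06 CPM and overlapped high. Control replicates 2 and 3 thus stood apart from all other libraries in PSMC4, not from high alone. Control replicate 1 was far below the other 2 control libraries. Without it PSMC4 and ZNHIT3_1, another alternate-contig entry, were the 2 genes called. PSME1, an activator subunit of the proteasome, stood at 22.9, 40.4 and 58.9 CPM in control, and in high at 1.76, 3.18 and 1.39 CPM (-4.17 ± 1.20). PSME1 was at 43.0, 98.6 and 1.18 CPM in low and at 28.2, 51.7 and 2.33 CPM in medium, so single libraries of other groups were as low as high. Over the 35 tested proteasome subunits the median was 0.01, which turned to -0.05 without a composition factor and to -0.022 without high replicate 3.

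Mitochondrial transcripts took a larger part of the counts in high than in control. Their share was 15.7%, 14.6% and 16.9% in control and 19.9%, 18.5% and 23.1% in high, so every high library lay above every control library. Low stood at 17.3%, 15.2% and 22.7% and medium at 18.9%, 16.5% and 18.6%, so both overlapped high. The means of control and high were 15.7 ± 1.14% and 20.5 ± 2.39% (SD, n = 3). The exact two-sided permutation p was 0.1, the smallest that 3 against 3 allows (0.25 after adjustment over 5 such measures). In bulk RNA more mitochondrial RNA per cell and less of other RNA cannot be told apart. The 2 ribosomal RNAs carried part of the difference of 4.77 percentage points. Without them it was 1.98 (exact permutation p = 0.3), and the 13 protein-coding genes took 11.3%, 12.2% and 15.3% in control and 13.7%, 16.8% and 14.2% in high, with overlap.

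All 13 protein-coding genes had a fitted log2 fold change above 0, with a median of 0.37 and a range from 0.10 to 0.72, and 8 had an unadjusted p below 0.05 in that direction (background 1.92%). The 13 are cut from the same long transcripts and are not independent. None was called. ND5, a subunit of complex I, stood at 7252, 6868 and 8032 CPM in control, and in high at 10412, 8617 and 11804 CPM (0.53 ± 0.20). ND6, the complex I subunit read from the opposite strand, stood at 683, 622 and 1093 CPM in control, and in high at 1294, 1152 and 1238 CPM (0.67 ± 0.24). With the use of strand in counting not given, its reads cannot be told apart from those of the other strand. In CPM the groups did not overlap in ND5 and ND6, 2 of the 13 (background 1.85%). Low stood at 8502, 6905 and 12118 CPM for ND5 and at 824, 755 and 1292 CPM for ND6. Low replicate 3 was thus above every high library in ND5 and within the high range in ND6. ATP8, an ATP synthase subunit whose frame overlaps that of ATP6, stood at 162, 157 and 293 CPM in control, and in high at 243, 506 and 222 CPM (0.72 ± 0.31). CYTB, of complex III, stood at 6749, 6528 and 8837 CPM against 8784, 10301 and 8758 CPM (0.39 ± 0.14). Here control replicate 3 reached the level of high. ND4, the complex I subunit with the smallest fitted change, stood at 15054, 18326 and 26187 CPM against 17969, 27570 and 15859 CPM (0.10 ± 0.23).

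Control replicate 3 went against this order. The median log2 deviation of the 13 genes from the control mean was -0.21, -0.13 and 0.35 in control replicates 1 to 3 and 0.29, 0.57 and 0.34 in high replicates 1 to 3, so that control library lay among the high libraries. Without high replicate 2 the median fold change was 0.22, 3 of the 13 were above at an unadjusted p below 0.05 (background 9.06%), and ND4, ND4L and COX3 turned to -0.19, -0.0069 and -0.018. The nuclear-encoded subunits of the respiratory chain did not lie above control with them, at 25 of 68 and a median of -0.13, which was -0.26 without high replicate 2 and -0.024 without high replicate 1. Without high replicate 2, 12 of the 68 were below at an unadjusted p below 0.05 (background 9.4%) and 4 above (background 9.06%). In CPM 1 of the 68 lay wholly above control (background 1.85%) and 2 wholly below (background 8.28%). The 1 above was NDUFA7, a complex I subunit, at 59.1, 43.7 and 51.2 CPM in control and 64.9, 60.5 and 73.9 CPM in high (0.43 ± 0.14).

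**Figure D3:**
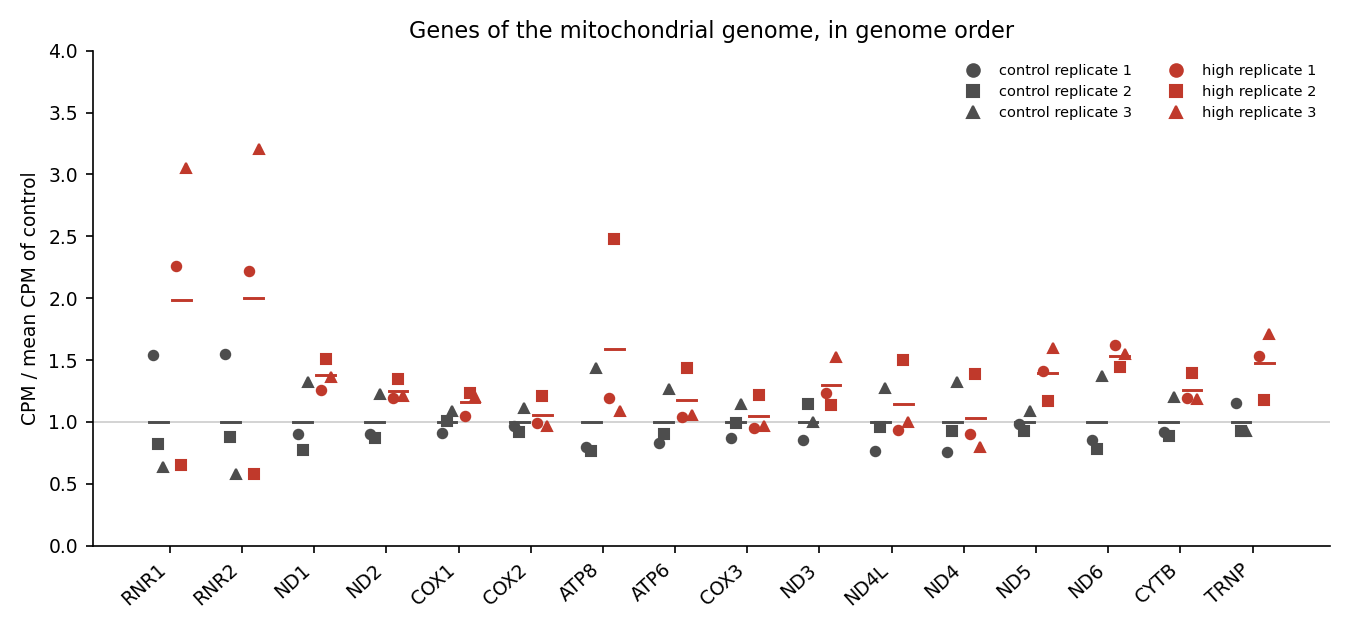
Genes of the mitochondrial genome in genome order, with each library's CPM divided by the control mean on the y axis, control in grey, high in red, the replicate number as the marker shape and bars at group means. The ribosomal RNAs RNR1 and RNR2 have high replicate 2 below the control mean. ND5, ND6 and TRNP have every high library above every control library.

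Histone and ribosomal protein genes separated the high libraries from one another more than high from control. Replication-dependent histone genes, whose mRNAs end in a stem-loop and not in poly(A), lay above control in 38 of 42 tested, with a median of 0.75 (0.50 to 1.13 as each library was left out). Their median deviation was 0.96, -0.38 and 1.21 in high replicates 1 to 3 and 0.14, -0.02 and -0.25 in control. High replicate 2 was thus below all of control and the other 2 far above, the same order as for 7SK, whose part in the result was not tested. Low replicate 3 stood at 1.71, above every high library, and low replicate 2 at -0.28. H1-4, a linker histone, was at 1.06, 1.06 and 0.366 CPM in control, and in high at 3.39, 1.21 and 3.12 CPM (1.71 ± 0.69), with no overlap. Small RNAs without poly(A) had 7 tested members, 6 of them above control, and a median of 1.62. Cytosolic ribosomal protein genes had a median of -0.15, with median deviations of -0.40, 0.26 and -0.41 in high and -0.27, 0.07 and 0.21 in control. Without high replicate 2 their median was -0.41 and 25 of 75 lay below control at an unadjusted p below 0.05 (background 9.4%), where the fit with all libraries had 0.

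No cell-cycle gene passed the test. Of 41 tested genes of G1/S and replication 20 lay above control and the median was -0.00 (-0.035 to 0.0095 as each library was left out). MCM5, a subunit of the replicative helicase, stood at 340, 351 and 321 CPM in control, and in high at 285, 316 and 278 CPM (-0.14 ± 0.09), with no overlap in CPM and overlap after TMM scaling. Of 43 genes of G2/M and mitosis 29 lay above control and the median was 0.08 (0.054 to 0.12 as each library was left out). CCNB1, the mitotic cyclin, stood at 370, 324 and 305 CPM against 420, 301 and 457 CPM (0.29 ± 0.16), with high replicate 2 the lowest of the 6. Without that library 12 of the 43 lay above and 1 below at an unadjusted p below 0.05 (backgrounds 9.06% and 9.4%).

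Immune lists had medians from -0.07 to 0.17. Of 17 tested NF-kB targets 14 lay above control, with a median of 0.17 (0.094 to 0.25 as each library was left out), and high replicate 2 was inside the control range (median deviations 0.17, -0.03 and 0.39 in high, 0.13, -0.01 and -0.10 in control). TRAF1, a TNF receptor adaptor, stood at 102, 89.8 and 93.5 CPM in control, and in high at 105, 103 and 107 CPM (0.20 ± 0.08, edgeR unadjusted p = 0.032), with no overlap. Of 25 tested interferon-stimulated genes 15 lay above control, with a median of 0.10 (0.0086 without control replicate 1). IFIT3, an antiviral protein, stood at 39.1, 32.8 and 33.0 CPM against 54.6, 33.6 and 59.3 CPM (0.55 ± 0.23), and high replicate 2 lay in the control range. B cell receptor signalling had 11 of 25 genes above control and a median of -0.03, which turned to 0.022 without high replicate 3. PIK3R1, the regulatory subunit of PI3 kinase, stood at 55.6, 53.2 and 53.4 CPM against 46.3, 46.9 and 33.9 CPM (-0.29 ± 0.13, edgeR unadjusted p = 0.044), with no overlap. HLA and antigen presentation genes, 5 of the 12 tested with a copy, had a median of -0.07, and immediate early genes 0.02, which turned to -0.036 without a composition factor, to -0.013 without high replicate 2 and to -0.044 without control replicate 1.

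Stress and metabolic lists had medians from -0.15 to 0.07. Chaperones of the endoplasmic reticulum had 6 of 25 genes above control and a median of -0.15. P4HB, a protein disulfide isomerase, stood at 598, 635 and 578 CPM in control, and in high at 497, 550 and 454 CPM (-0.21 ± 0.10), with no overlap. Heat shock chaperones had 14 of 21 above and a median of 0.07. Targets of ATF4, the regulator of the amino acid response, had 11 of 27 above and a median of -0.04. Cholesterol synthesis genes had 8 of 24 above and a median of -0.11. Glycolysis and hypoxia genes had 10 of 26 above and a median of -0.09. In the fits without high replicate 2 the medians of ATF4 targets, cholesterol synthesis and glycolysis were -0.096, -0.20 and -0.24.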

How the data were processed

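Polyadenylated RNA of TK6 cells was sequenced in 150 nt paired reads, per the labels' protocols. Per the submitters' processing notes, HISAT2 2.2.1, featureCounts 2.0.6 and fastp 0.23.4 were used with GRCh38.p14. How strand and reads with several places were treated is not given in the sources used here. Raw read counts per gene, which were tested, were deposited by the authors with CPM, which equalled count over library total within 5e-05. Of counts from 1 to 10, 68.7% were even, so counts may overstate independent fragments.

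Genes passing filterByExpr were fitted with edgeR 4.0.16 (R 4.3.3; TMM, glmQLFit, glmQLFTest; 12 libraries, 4 groups, 8 residual degrees of freedom). Calls needed a Benjamini-Hochberg adjusted p below 0.05. The fitting script was tested on simulated data. Copy genes have an entry with a numbered suffix or lie on an alternate or patch contig. Alternatives were other scalings and filters, DESeq2 1.42.0, limma 3.58.1 (voom and trend), a replicate block, fewer genes and fewer libraries.

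Genes named were 9 fixed AHR and p53 genes, the 10 smallest p per direction without a copy or overlap, the 4 smallest with a copy, up to 4 per list by p, and the 5 most abundant without overlap; not all list members are described, and 2 genes of these are not reported here. Members and lists were chosen with earlier results of these data known. Replicate numbers are not known to pair the libraries. Deviations from the group mean of same-numbered control and high libraries correlated across genes at 0.234, 0.113 and -0.328. Deviations within a group depend on one another, so these values cannot decide whether a culture or day was shared.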

Additional observations from a re-analysis of the deposited data

How the results depend on the processing

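The count of 0 genes called was also 0 with DESeq2 size factors, no composition factor, no mitochondrial rows, a 1 CPM filter, limma-trend on log2(CPM + 0.1), the 6 libraries alone, the replicate block and without copy genes. It was 4 with no filter on low counts, 5 in DESeq2, 1 in limma voom and 1 in limma-trend on log2(CPM + 1), and 0 to 2 as each library was left out; apart from RPS29 in DESeq2, the genes called had a copy. Genes with an unadjusted p below 0.05 numbered 810 with no filter and 609 with the replicate block, although the numbers are not known to pair libraries, and 179 to 2295 as each library was left out. The cause of these shifts was not tested. The mitochondrial share differed by 3.45 to 5.77 percentage points as each library was left out.

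Of 2759 values of 155 named genes under alternatives, 15 in 8 genes had the opposite sign. POLK was at -0.034 with no composition factor and at -0.040 and -0.041 in limma-trend on log2(CPM + 1) and log2(CPM + 0.1), and ran from -0.073 to 0.077 as each library was left out. RMRP was at -0.50 in limma voom. With each library left out in turn, TIPARP ran from -0.16 to 0.044, RPS2 from -1.39 to 0.13, ND4 from -0.19 to 0.38, ND4L from -0.0069 to 0.49, COX3 from -0.018 to 0.25 and HPRT1 from -0.10 to 0.062. Of 521 list medians under alternatives, 55 moved by more than the spread between libraries. For CYP1A1, with 4 and 6 counts over a group, the counting interval limits what can be said; for battery genes at 0 counts the reason was not tested.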

Other observations

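Fold changes varied little with gene length. With the tested genes in 5 equal classes of exon length, from the shortest to the longest, the median log2 fold change was 0.04, 0.05, -0.00, -0.03 and -0.03. In high replicate 3 the median deviation from the control mean ran from 0.10 in the shortest class and 0.12 in the next to -0.09 in the longest, and in high replicate 2 from 0.06 to -0.01.

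No gene had 0 counts in all libraries of one group and at least 10 counts in each library of the other, in either direction (0 genes in high and 0 in control).

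EBF1, a transcription factor of B-cell identity, stood at 27.6, 18.8 and 20.3 CPM in control, and in high at 28.3, 23.8 and 35.1 CPM (0.44 ± 0.17 log2), with overlap. IRF4, another B-lineage factor, stood at 689, 783 and 855 CPM against 547, 827 and 324 CPM (-0.40 ± 0.32), with high replicate 2 in the control range.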
